A study of Mus musculus with 27 samples.

Results

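Macrophages display receptors that bind modified lipoproteins, sugars, bacterial products, and neighbouring cells, and 10 genes for such scavenger and surface receptors were followed during induced neuron (iN) reprogramming of mouse embryonic fibroblasts (MEFs). The genes were chosen by name (Adgre1, Mrc1, Cd163, Msr1, Marco, Cd14, Cd36, Sirpa, Lyve1, and Clec4e), and all 10 are among the 54532 genes of the bulk RNA-seq table. The table holds 27 libraries, with 3 replicates in each of 9 groups of genotype and day. WT MEFs, Per1-/- MEFs (strain B6.129-Per1tm1Drw/J), and MEFs labelled Per2-/- (strain B6.129-Per2tm1Drw/J) were sampled on days 0, 2, and 4. Every group, WT and day 0 included, had been transduced with lentiviruses for doxycycline-inducible reprogramming factors and for the M2rtTA transactivator. Doxycycline and N3 medium were given from day 0, so day 0 is the transduced culture before these factors were switched on. The MEFs came from embryos without head and heart, pooled from several animals in a dish, and their sex was not determined. The culture was not sorted, and the labels call all 27 libraries induced neurons.

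As background, Adgre1 encodes F4/80, a surface protein by which mouse macrophages are recognised, and Mrc1 encodes the mannose receptor CD206. Msr1 (scavenger receptor A), Marco, and Cd36 take up modified lipoproteins, bacteria, or fatty acids, and Cd163 takes up haemoglobin bound to haptoglobin. Cd14 hands lipopolysaccharide to Toll-like receptor 4, Sirpa receives an inhibitory signal from CD47 on other cells, Clec4e (Mincle) signals through the Fc receptor gamma chain, and Lyve1 binds hyaluronan on lymphatic endothelium and on some tissue macrophages.

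The unit of the table is FPKM, in which fragments are divided by gene length and by a scale for each library, so levels can be compared between genes. In a library 15815013 to 24264097 fragments were counted on genes. The scale was below that number in every day 0 library and above it in every later one. In WT replicate 1 it was 19028608 beside 21906593 fragments on day 0, and 25902769 beside 24264097 on day 2. Calls against day 0 after rescaling are given below. The 14932 genes that averaged 0.5 FPKM or more were tested with limma on log2(FPKM + 0.1). A gene was called if its log2 fold change was 0.58 or more in either direction and its Benjamini-Hochberg adjusted p was 0.05 or less. On day 0 WT cells had 0.894 ± 0.0709 FPKM of the Per2 transcript (SD, n = 3) and the Per2-/- labelled libraries had 1.93 ± 0.068, which at the level of the transcript goes against that label. The study checked the loss of both proteins by western blotting, and whether the Per2 allele keeps a transcript was not tested here. Per1 was at 5.78 ± 0.479 and 4.11 ± 0.866 in WT and Per1-/- cells. On day 0, the library of Per1-/- replicate 3 was the highest and that of replicate 2 labelled Per2-/- the lowest of the 9 for each of the 6 receptors that were tested. Values without 1 of them are given beside each call against day 0 that then moved by over 1.5 times or was lost.

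All 20 genes of a macrophage reference list that holds none of the 10 receptors were above the filter, and their sum in WT cells was 257 to 568 FPKM at the start and 708 to 1234 by day 4. Of the defining markers, Csf1r was at 6.54 ± 2.05 and Ptprc at 0.392 ± 0.185 FPKM (SD, n = 3) in WT cells on day 0. The fibroblast list summed to 2418 to 5911 FPKM over all libraries and the neuron list to 47.8 to 222. Rbfox3, which marks mature neurons, was at 0 in all WT libraries on day 0 and averaged 0.101 FPKM on day 4. In such bulk RNA, fewer cells of a type and less RNA per cell cannot be told apart.

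Promoter sequences in the RefSeq table (GRCm38.p6, windows of 300 bases, most of them before a start site) matched 5 of the 10 genes, namely Mrc1, Cd36, Marco, Clec4e, and Cd163. Adgre1, Msr1, Cd14, Sirpa, and Lyve1 did not match. Of the matched windows 4 are shown as pairs, Mrc1 and Cd36 for the receptors whose transcripts were plentiful and Marco and Clec4e for those whose transcripts were rare, each 5′ to 3′ on the strand of its gene. Capitals mark TATAAA and GAGGAA or its reverse complement TTCCTC, a form of the site that the myeloid factor PU.1 and other ETS proteins bind. Shorter forms of that site, such as GGAA alone, were not searched.
Mrc1 (chr2:14229164-14229463, plus strand): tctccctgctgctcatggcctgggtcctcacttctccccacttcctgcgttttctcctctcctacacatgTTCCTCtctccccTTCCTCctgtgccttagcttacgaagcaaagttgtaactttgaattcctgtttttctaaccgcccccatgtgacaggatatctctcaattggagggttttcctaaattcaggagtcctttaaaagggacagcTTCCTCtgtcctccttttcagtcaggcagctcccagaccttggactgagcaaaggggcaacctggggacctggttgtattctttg
Cd36 (chr5:17835847-17836146, minus strand): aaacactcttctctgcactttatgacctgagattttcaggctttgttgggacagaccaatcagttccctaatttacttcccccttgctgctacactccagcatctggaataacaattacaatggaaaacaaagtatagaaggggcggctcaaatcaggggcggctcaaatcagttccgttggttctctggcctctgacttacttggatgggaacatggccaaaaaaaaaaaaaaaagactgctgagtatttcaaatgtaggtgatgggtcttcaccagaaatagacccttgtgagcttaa
Marco (chr1:120504975-120505274, minus strand): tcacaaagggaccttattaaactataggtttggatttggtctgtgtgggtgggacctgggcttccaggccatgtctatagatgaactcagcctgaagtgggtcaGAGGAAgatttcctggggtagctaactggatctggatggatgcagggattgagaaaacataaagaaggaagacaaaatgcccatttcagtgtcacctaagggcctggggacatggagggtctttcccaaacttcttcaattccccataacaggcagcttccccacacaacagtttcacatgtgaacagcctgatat
Clec4e (chr6:123289822-123290121, minus strand): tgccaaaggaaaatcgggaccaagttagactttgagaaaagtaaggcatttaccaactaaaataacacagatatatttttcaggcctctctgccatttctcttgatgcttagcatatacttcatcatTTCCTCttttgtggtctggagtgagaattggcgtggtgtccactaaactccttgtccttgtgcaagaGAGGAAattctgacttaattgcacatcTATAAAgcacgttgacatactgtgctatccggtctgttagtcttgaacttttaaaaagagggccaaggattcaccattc

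The Mrc1 window held GAGGAA 3 times on the opposite strand, 180, 167, and 35 bases before the start, and the Clec4e window held it 2 times, 123 and 56 bases before the start. Marco had it once, 146 bases before the start, and the windows of Cd36 and Cd163 did not have it. Of 32851 mouse promoter windows of this length, 28.3% held GAGGAA on either strand, so its presence in 3 of 5 windows is a description only. TATAAA was found in Clec4e, 29 bases before the start, and in 13.6% of all windows. The Cd36 window lies inside the span of the gene as annotated for the deposited table.

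The 10 transcripts fell into 6 that were well above the filter in every library and 4 that were not. Averaged over the 27 libraries, Sirpa was at 36.8 FPKM, Mrc1 at 26, Adgre1 at 14.0, Cd36 at 9.19, Cd14 at 7.61, and Msr1 at 3.30. Clec4e followed at 0.240, Marco at 0.109, Lyve1 at 0.106, and Cd163 at 0.0185 FPKM, and these 4 did not reach the mean of 0.5 FPKM that the test required. The fewest fragments that any library gave for a tested receptor were 66, for Cd14.

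**Figure D1:**
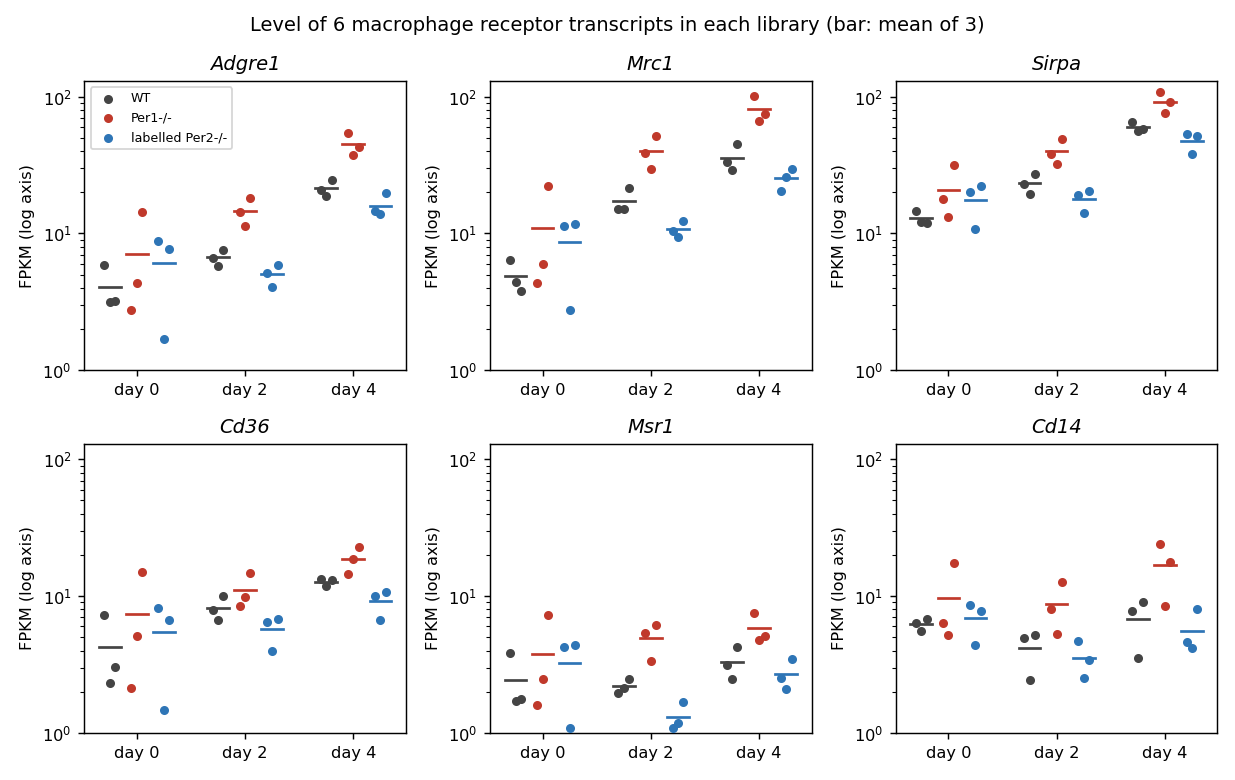
Level of the 6 tested receptors in each of the 27 libraries, in FPKM on a log axis, by day and genotype, with a bar for the mean of 3 replicates. Mrc1 runs from 2.74 to 101 FPKM and Msr1 from 1.08 to 7.48, and the Per1-/- means are the highest of each receptor on days 2 and 4, while single Per1-/- libraries overlap with WT for Cd36 on day 2 and Cd14 on day 4.

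Adgre1 (ENSMUSG00000004730, chromosome 17 from 57358691 to 57483527, plus strand, GRCm38) was higher by day 4 than on day 0 in each genotype. In WT cells, Adgre1 was at 5.88, 3.16, and 3.20 FPKM in replicates 1 to 3 on day 0, at 6.66, 5.75, and 7.60 on day 2, and at 20.7, 18.7, and 24.7 on day 4. In Per1-/- cells, Adgre1 was at 2.75, 4.35, and 14.2 FPKM on day 0, at 14.4, 11.3, and 18.2 on day 2, and at 54.1, 37.3, and 42.9 on day 4. The Per2-/- labelled libraries had 8.80, 1.69, and 7.66 FPKM of Adgre1 on day 0, 5.16, 4.06, and 5.83 by day 2, and 14.5, 13.8, and 19.6 by day 4. Each genotype's day 4 libraries were all above its day 0 libraries. This held for 33.1%, 30.5%, and 31.0% of all tested genes in WT cells, Per1-/- cells, and the Per2-/- labelled libraries. The Per1-/- libraries of day 4 were above all other groups, and the share of all genes with that order was not counted. From day 0 to day 4 Adgre1 rose 5.32-fold in WT cells (log2 fold change 2.41, SE 0.49, adjusted p = 0.000239 from limma), 7.83-fold in Per1-/- cells (2.97, SE 0.49, adjusted p = 2.54e-05), and 3.19-fold in the Per2-/- labelled libraries (1.67, SE 0.49, adjusted p = 0.00604). Without the lowest day 0 library the last of these was 0.93 (adjusted p = 0.0676) and was not called, and without the highest of Per1-/- cells Adgre1 rose 12.5-fold by day 4 (3.64) and 4.07-fold by day 2 (2.02) in those cells. By day 2 Adgre1 was called only in Per1-/- cells (log2 fold change 1.35, adjusted p = 0.0226 from limma), and that call was lost without replicate 1 or 2 of day 0 or replicate 1 or 3 of day 2, where the adjusted p over the 6 fits ranged from 0.000817 to 0.151.

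Mrc1 (ENSMUSG00000026712, chromosome 2 from 14229392 to 14332057, plus strand) had the largest fold change from day 0 to day 4 of the 6 in each genotype, with all libraries in the fit. It overlaps the microRNA gene Mir511, which had a mean of 0 FPKM. In WT cells, Mrc1 was at 6.39, 4.38, and 3.79 FPKM on day 0, at 15.2, 15.1, and 21.5 on day 2, and at 33.1, 29.3, and 44.9 on day 4. In Per1-/- cells, Mrc1 was at 4.36, 6.02, and 22.3 FPKM on day 0, at 39.0, 29.6, and 51.3 on day 2, and at 101, 66.4, and 74.4 on day 4. The Per2-/- labelled libraries had 11.4, 2.74, and 11.8 FPKM of Mrc1 on day 0, 10.4, 9.36, and 12.4 by day 2, and 20.6, 26, and 29.3 by day 4. On day 2 the 3 genotypes formed separate ranges, with Per1-/- cells at the top, and the Per2-/- labelled libraries still overlapped with their day 0 range. Every Per1-/- library was above WT for 5.26% of all tested genes that day, and every Per2-/- labelled library below WT for 5.69%. The share with both was not counted. Mrc1 rose 3.53-fold by day 2 (log2 fold change 1.82, SE 0.48, adjusted p = 0.00272 from limma) and 7.29-fold by day 4 (2.87, adjusted p = 2.87e-05) in WT cells. In Per1-/- cells the rise was 4.6-fold (2.20, adjusted p = 0.000535) and 9.36-fold (3.23, adjusted p = 7.29e-06, limma). In the Per2-/- labelled libraries it was 3.45-fold by day 4 (1.79, adjusted p = 0.00313), and the value at day 2 was 0.56 (adjusted p = 0.335, limma). Without the lowest day 0 library of that label the rise by day 4 was 2.16-fold (1.11, adjusted p = 0.0351, limma), below the 2.23-fold of Sirpa. Without Per1-/- replicate 3 of day 0 Mrc1 rose 7.48-fold by day 2 (2.90) and 15.2-fold by day 4 (3.93) in Per1-/- cells.

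Sirpa (ENSMUSG00000037902, chromosome 2 from 129592835 to 129632228, plus strand) had the highest level and the smallest standard errors. WT cells had 14.6, 12.2, and 12.0 FPKM of Sirpa on day 0, 23.0, 19.5, and 27.4 by day 2, and 65.5, 56.0, and 57.8 by day 4. Per1-/- cells had 17.7, 13.1, and 31.7 FPKM of Sirpa on day 0, 38.2, 32.4, and 48.9 by day 2, and 108, 75.4, and 91.4 by day 4. Sirpa was at 20, 10.7, and 22.1 FPKM in the Per2-/- labelled libraries on day 0, at 19.1, 14.1, and 20.3 on day 2, and at 53.6, 37.9, and 51.4 on day 4. On day 4 the 3 genotypes formed separate ranges, in the order Per1-/-, WT, and labelled Per2-/-. Of all tested genes 7.98% had every Per1-/- library above WT and 6.13% every Per2-/- labelled library below WT. The share with both was not counted. Sirpa rose 4.61-fold in WT cells (log2 fold change 2.20, SE 0.27, adjusted p = 5.9e-07 from limma), 4.63-fold in Per1-/- cells (2.21, adjusted p = 6.09e-07), and 2.79-fold in the Per2-/- labelled libraries (1.48, adjusted p = 8.68e-05) by day 4. By day 2 it rose in WT (0.84, adjusted p = 0.0114) and Per1-/- cells (1.01, adjusted p = 0.00329, limma), and the WT call was lost without replicate 3 of day 2 (0.72, adjusted p = 0.0537). Its paralogs Sirpb1a, Sirpb1b, and Sirpb1c, whose sequences are alike and could share reads with it, were below the filter.

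Cd36 (ENSMUSG00000002944, chromosome 5 from 17781690 to 17888801, minus strand) had the largest standard errors of the 6. WT cells had 7.33, 2.32, and 3.05 FPKM of Cd36 on day 0, 7.90, 6.70, and 9.98 by day 2, and 13.3, 11.9, and 13.1 by day 4. Per1-/- cells had 2.12, 5.11, and 15.0 FPKM of Cd36 on day 0, 8.47, 9.85, and 14.8 by day 2, and 14.4, 18.7, and 22.9 by day 4. Cd36 was at 8.13, 1.48, and 6.71 FPKM in the Per2-/- labelled libraries on day 0, at 6.46, 3.97, and 6.82 on day 2, and at 10, 6.74, and 10.8 on day 4. Only in WT cells were all day 4 libraries above those of day 0, as for 33.1% of all tested genes. Cd36 rose 3.35-fold in WT cells (log2 fold change 1.74, SE 0.57, adjusted p = 0.0112 from limma) and 3.30-fold in Per1-/- cells (1.72, adjusted p = 0.0121), while the value was 1.03 (adjusted p = 0.123) in the Per2-/- labelled libraries. The call in WT cells was lost without replicate 2 of day 0 (1.41, adjusted p = 0.0594) and that in Per1-/- cells without replicate 1 of day 0 (1.06, adjusted p = 0.107), while without replicate 3 of day 0 the latter was 5.42-fold (2.44). Without WT replicate 1 of day 0 Cd36 was called by day 2 in WT cells (1.57, adjusted p = 0.0346), and without replicate 1 of day 0 labelled Per2-/- it was called by day 4 in that group (1.47, adjusted p = 0.0468, limma).

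Cd36 is also a gene of adipocytes and endothelium, so markers of these cells are given beside it. Of the 10 adipocyte genes, 5 passed the filter and 2 of these rose from day 0 to day 4 in each genotype, and their sum was 8.48 to 10.3 FPKM in WT cells at the start and 25.7 to 34.1 by day 4. Adipoq, which defines adipocytes, was at 0 in every WT library of days 0 and 2 and averaged 0.0541 FPKM on day 4, and 1 library labelled Per2-/- of day 4 reached 2.52. Among 15 endothelial genes 6 passed the filter, with 2 called higher and 2 lower on day 4 in each genotype, and Pecam1 averaged at most 0.10 FPKM in any group. Of all tested genes 22.9%, 22.6%, and 21.6% were called higher by day 4 in WT cells, Per1-/- cells, and the Per2-/- labelled libraries. Those called lower were 3120, 3043, and 2800 of 14932. The part of these cells in the Cd36 values was not tested.

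Msr1 (ENSMUSG00000025044, chromosome 8 from 39581685 to 39642673, minus strand) and Cd14 (ENSMUSG00000051439, chromosome 18 from 36725074 to 36726736, minus strand) were not called between any of the days in this fit, which has no replicate block. With the block both were called lower by day 2 in the Per2-/- labelled libraries, and Cd14 higher by day 4 in Per1-/- cells. WT cells had 3.84, 1.71, and 1.78 FPKM of Msr1 on day 0, 1.97, 2.14, and 2.49 by day 2, and 3.16, 2.48, and 4.22 by day 4. Per1-/- cells had 1.59, 2.47, and 7.29 FPKM of Msr1 on day 0, 5.33, 3.38, and 6.14 by day 2, and 7.48, 4.78, and 5.14 by day 4. Msr1 was at 4.22, 1.08, and 4.41 FPKM in the Per2-/- labelled libraries on day 0, at 1.08, 1.18, and 1.69 on day 2, and at 2.54, 2.08, and 3.48 on day 4. The days overlapped in each genotype except that the Per2-/- labelled libraries were all higher on day 4 than on day 2, as were 13.3% of all tested genes. The log2 fold change of Msr1 from day 0 to day 4 was 0.48 (adjusted p = 0.392 from limma) in WT cells, 0.86 (adjusted p = 0.122) in Per1-/- cells, and -0.05 (adjusted p = 0.933) in the Per2-/- labelled libraries, each with an SE of 0.48.

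WT cells had 6.39, 5.53, and 6.85 FPKM of Cd14 on day 0, 4.91, 2.43, and 5.24 by day 2, and 7.73, 3.54, and 9.04 by day 4. Per1-/- cells had 6.35, 5.16, and 17.5 FPKM of Cd14 on day 0, 8.08, 5.33, and 12.7 by day 2, and 24.2, 8.42, and 17.8 by day 4. Cd14 was at 8.67, 4.42, and 7.83 FPKM in the Per2-/- labelled libraries on day 0, at 4.69, 2.51, and 3.41 on day 2, and at 4.62, 4.16, and 8.01 on day 4. WT cells alone had all day 2 libraries below those of day 0, as for 34.6% of all tested genes, and the highest values were in Per1-/- cells on day 4. The log2 fold change of Cd14 from day 0 to day 4 was 0.01 (adjusted p = 0.984 from limma), 0.88 (adjusted p = 0.111), and -0.32 (adjusted p = 0.581) in WT cells, Per1-/- cells, and the Per2-/- labelled libraries, with an SE of 0.47. Without the highest day 0 library of Per1-/- cells, Cd14 (1.41, adjusted p = 0.0143) and Msr1 (1.47, adjusted p = 0.0089) were called higher on day 4 in those cells (limma), and so was Cd14 without replicate 2 of day 4 (1.31, adjusted p = 0.0289).

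The groups can be ordered by their means. Adgre1 was highest in Per1-/- cells on day 4 (44.8 ± 8.58 FPKM, SD, n = 3), then in WT cells (21.4 ± 3.05) and the Per2-/- labelled libraries (16 ± 3.19) of that day, and lowest in WT cells on day 0 (4.08 ± 1.55). For Mrc1 the order began with Per1-/- cells, at 80.6 ± 18.1 by day 4 and 40.0 ± 10.9 by day 2, and ended with WT cells on day 0 (4.85 ± 1.36). In the orders of Adgre1, Mrc1, and Cd36 the first and second groups did not overlap and every later pair of neighbours did. In that of Sirpa, 3 of the 8 neighbouring pairs did not overlap, in that of Msr1 only the last pair, and in that of Cd14 no pair was without overlap. Such orders were not counted over all genes.

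Between days, the calls among the 6 tested receptors stood as follows. By day 2, 2 of 6 had risen in WT cells (Mrc1 and Sirpa), against 20.8% of all tested genes called higher, 3 of 6 in Per1-/- cells (these and Adgre1, against 20.8%), and none in the Per2-/- labelled libraries (against 18.7%). In the last group the unadjusted p was under 0.05 for 1 receptor, Msr1, which was lower, and for 60.0% of all genes, and voom weights in limma also called none. By day 4, 4 of 6 had risen in WT cells (against 22.9%), 4 of 6 in Per1-/- cells (against 22.6%), and 3 of 6 in the Per2-/- labelled libraries (against 21.6%). Sirpa alone was called higher from day 2 to day 4 in WT (log2 fold change 1.36, adjusted p = 0.00627 from limma) and Per1-/- cells (1.20, adjusted p = 0.0167). Of all tested genes, 1.62% and 1.38% were called higher there. Adgre1 had larger fold changes over those days that were not called, 1.67 in WT cells (adjusted p = 0.0548) and 1.61 in Per1-/- cells (adjusted p = 0.0689, limma). In the Per2-/- labelled libraries Sirpa (1.41, adjusted p = 0.00494) and Adgre1 (1.65, adjusted p = 0.0481, limma) were called higher over those days, against 2.32%. That call of Adgre1 was lost whichever of the 6 libraries was left out (adjusted p of 0.0624 to 0.178). All day 4 libraries were above those of day 2 for 4 of 6 receptors in WT cells, against 14.7% of all tested genes. It was 3 of 6 in Per1-/- cells (14.1%) and 4 of 6 in the Per2-/- labelled libraries (13.3%). With the replicate number as a block in limma, Cd36 was also called by day 2 in Per1-/- cells (0.96, adjusted p = 0.0467), and Adgre1 from day 2 to day 4 in WT (1.67, adjusted p = 0.0225) and Per1-/- cells (1.61, adjusted p = 0.0286). The call of Sirpa in Per1-/- cells was lost without Per1-/- replicate 2 of day 2 or replicates 1 or 3 of day 4. Without Per1-/- replicate 3 of day 0, 5 of the 6 were called by day 2 and all 6 by day 4 in those cells. Without replicate 2 of day 0 labelled Per2-/-, Msr1 fell by 1.66 on the log2 scale by day 2 (adjusted p = 0.00384, limma). 

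The scaling bears on these counts. With the values as deposited, 51.3 to 53.5% of the genes called against day 0 were higher on the later day, and with each library rescaled to a common sum this was 71.7 to 81.8%, with the median of all genes at 0.25 to 0.41 on the log2 scale. The receptors called against day 0 were also called higher after rescaling, which added Adgre1 (1.17) and Cd36 (1.52) by day 2 in WT cells. In Per1-/- cells it added Cd36 by day 2 (1.34) and Msr1 (1.12) and Cd14 (1.15) by day 4, so that all 6 were called by day 4 (adjusted p of at most 0.0493 from limma for these 2).

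**Figure D2:**
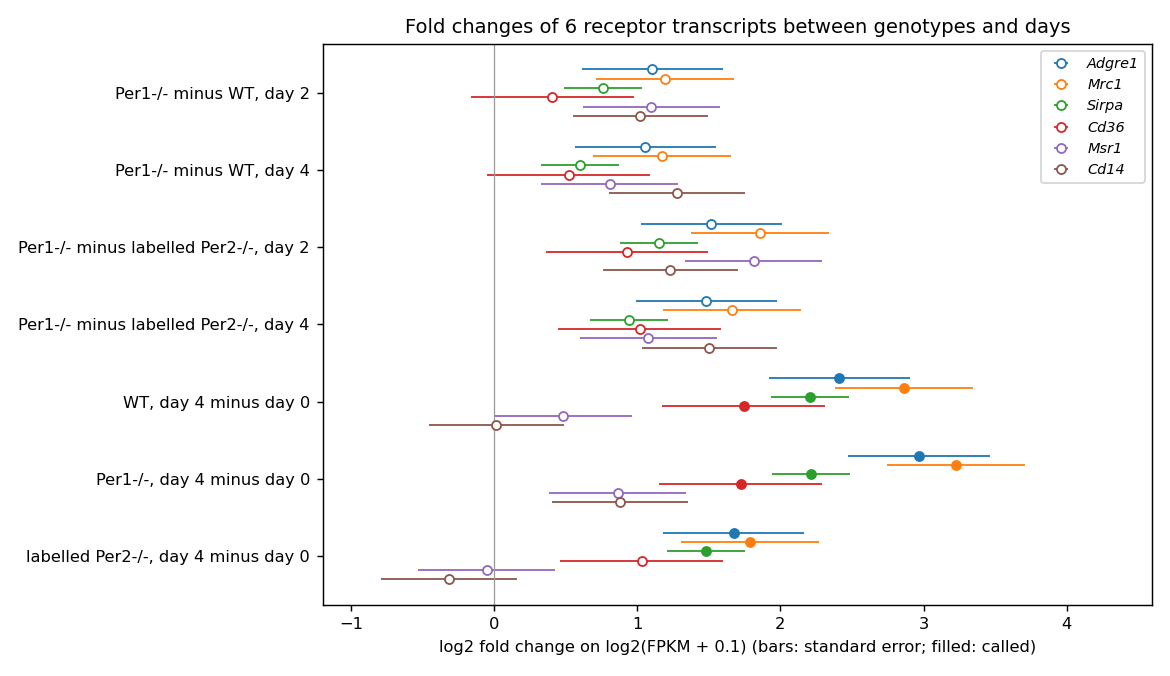
Log2 fold change of each tested receptor with its standard error, on log2(FPKM + 0.1), between genotypes on days 2 and 4 and from day 0 to day 4, where filled points were called. No comparison of genotypes has a filled point, and 4, 4, and 3 receptors are filled from day 0 to day 4 in WT cells, Per1-/- cells, and the Per2-/- labelled libraries.

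Whether the loss of Per1 or the Per2-/- label went with other receptor levels was tested on each day. On day 2, Mrc1 was 2.28-fold higher in Per1-/- than in WT cells (log2 fold change 1.19, SE 0.48), Adgre1 2.15-fold (1.10), Msr1 2.14-fold (1.10), Cd14 2.03-fold (1.02), Sirpa 1.70-fold (0.76), and Cd36 1.32-fold (0.40). On day 4, Cd14 was 2.42-fold higher (1.28, SE 0.47), Mrc1 2.25-fold, Adgre1 2.08-fold, Msr1 1.75-fold, Sirpa 1.52-fold, and Cd36 1.43-fold. None of these differences was called by limma, with an adjusted p of 0.999 for all 6 on day 2 and of 0.622 to 0.998 on day 4. At an unadjusted p under 0.05 there were 5 receptors on day 2 (all but Cd36) and 4 on day 4 (Adgre1, Mrc1, Sirpa, and Cd14), and voom weights also called none on either day. Over all genes, 0.0067% and 0.0201% were called higher in Per1-/- cells on those days and 2.75% and 6.19% had an unadjusted p under 0.05. The paper used DESeq2 with the same thresholds. It lists Adgre1 among the genes higher in Per1-/- cells than in both other genotypes on days 2 and 4. DESeq2 was not run here, so that call was not tested, and the lack of calls above belongs to limma on FPKM.

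The ranges of the libraries tell these groups apart more often than the test. On day 2 every Per1-/- library was above every WT library for 5 of the 6 receptors, against 5.26% of all tested genes, and only Cd36 overlapped (8.47 FPKM in the lowest Per1-/- library and 9.98 in the highest WT library). On day 4 it was again 5 of 6, against 7.98% of genes, and Cd14 overlapped (8.42 and 9.04 FPKM). The 20 genes of the macrophage reference list had a median log2 difference of 0.92 and 0.85 on these days, the 6 receptors 1.06 and 0.93, and all tested genes -0.01 on both. The reference list summed to 1383 to 2434 FPKM in Per1-/- cells on day 4, above the WT range given earlier, and to 531 to 916 in the Per2-/- labelled libraries. The part of the number of macrophages in these differences was not tested.

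Per1-/- cells differed more from the Per2-/- labelled libraries. On day 2, Mrc1 was 3.63-fold higher (log2 fold change 1.86, SE 0.48, adjusted p = 0.16 from limma), Msr1 3.52-fold, Adgre1 2.86-fold, Cd14 2.35-fold, Sirpa 2.22-fold (1.15, SE 0.27, adjusted p = 0.117), and Cd36 1.90-fold. On day 4, Mrc1 was 3.16-fold higher (1.66, adjusted p = 0.119), Cd14 2.83-fold, Adgre1 2.79-fold, Msr1 2.11-fold, Cd36 2.03-fold, and Sirpa 1.92-fold (0.94, adjusted p = 0.118, limma). All 6 receptors were without overlap on both days, with every Per1-/- library higher, against 8.59% and 11.0% of all tested genes. No receptor was called, where 0.0603% and 0.442% of genes were called higher, and 5 receptors had an unadjusted p under 0.05 on each day, against 8.22% and 13.2% of genes. Voom weights called 2 of them on day 4, Adgre1 (1.49, adjusted p = 0.0158) and Mrc1 (1.66, adjusted p = 0.0395), and the same genes were called when only these 2 groups entered the fit (adjusted p = 0.0399 and 0.0367, limma). The shares of all genes above belong to the fit of all 9 groups without these weights, so these 2 calls have no share beside them. On day 4, 66 genes were called higher and 17 lower in Per1-/- cells, against 9 and 10 after rescaling to a common sum.

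The Per2-/- labelled libraries had lower means than WT cells for all 6 receptors on days 2 and 4. The log2 fold changes were between -0.72 (Msr1) and -0.21 (Cd14) on day 2 and between -0.50 (Cd36) and -0.23 (Cd14) on day 4, with adjusted p of 1.00 from limma. None was called (0.0067% of all genes were called lower on each day) and none had an unadjusted p under 0.05 (2.87% and 3.42% of genes did), and voom called none. Mrc1 and Msr1 on day 2 and Cd36 and Sirpa on day 4 were below every WT library, 2 of 6 on each day, against 5.69% and 6.13% of all tested genes. On day 0 no pair of genotypes was without overlap for any of the 6 receptors, against 2.31% of genes with every Per1-/- library above WT, 3.64% with every one above the Per2-/- labelled libraries, and 4.82% with every one of the latter below WT, and log2 differences between Per1-/- and WT cells were 0.41 to 0.81. None was called on day 0 by limma or with voom weights, where 0.0134%, 0.0201%, and 0.0067% of all genes were called in these comparisons. The unadjusted p was under 0.05 for 1 receptor, Sirpa, between Per1-/- and WT cells, and for 4.82%, 5.97%, and 3.94% of all genes.

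The change over days was also compared between genotypes. From day 0 to day 4, the change in Per1-/- cells minus that in WT cells was 0.56 for Adgre1, 0.36 for Mrc1, 0.01 for Sirpa, -0.02 for Cd36, 0.38 for Msr1, and 0.87 for Cd14 on the log2 scale, with SE of 0.38 to 0.80. Without Per1-/- replicate 3 of day 0, the changes in Per1-/- cells were larger, at 3.64, 3.93, 2.56, 2.44, 1.47, and 1.41 in the same order. The changes in WT cells were 2.41, 2.87, 2.20, 1.74, 0.48, and 0.01. Without that library no difference in change from WT cells was called either. Against the Per2-/- labelled libraries, the change to day 2 was larger in Per1-/- cells by 1.64 for Mrc1, 1.65 for Msr1, and 0.94 for Sirpa (adjusted p = 0.987 for each, limma). No receptor was called in any of the 6 such comparisons, where 0.0% of all tested genes were called. The unadjusted p was under 0.05 for those 3 receptors and, to day 4, for Mrc1, against 4.49% and 5.99% of all genes, and for no receptor in the other 4 comparisons (2.05 to 3.35% of genes). Voom weights called none.

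Of the 20 macrophage reference genes, WT cells had 16 that rose from day 0 to day 4, Per1-/- cells 20, and the Per2-/- labelled libraries 10, with a median log2 fold change of 1.91, 2.31, and 1.24. The shares of all tested genes called higher were 22.9%, 22.6%, and 21.6%. Each receptor was also expressed as the difference of its log2(FPKM + 0.1) from the mean of the 20 reference genes in the same library. These are values without a test. Mrc1 lay at -0.45 to -0.01 in WT cells on day 0, at 0.32 to 0.70 on day 2, and at 0.52 to 0.82 on day 4, so the days after day 0 were all above it, as for 5.63% (day 2) and 3.5% (day 4) of all tested genes on this scale. Adgre1 in WT cells lay at -0.57 to -0.47 on day 0, lower at -0.86 to -0.67 on day 2, and higher at -0.15 to 0.05 on day 4. Sirpa and Cd36 overlapped between days 0 and 4 in every genotype, with differences of the means from -0.56 to 0.27.

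Msr1 and Cd14 moved the other way on this scale. Msr1 lay at -1.32 to -1.17 in WT cells on day 0 and at -2.83 to -2.57 on day 4, and its means on day 4 were lower by 1.47, 1.42, and 1.26 in WT cells, Per1-/- cells, and the Per2-/- labelled libraries. Cd14 lay at -0.45 to 0.57 in WT cells on day 0 and at -2.32 to -1.48 on day 4, with means lower by 1.93, 1.41, and 1.52. For both, every day 4 library was below every day 0 library in all 3 genotypes, which also held for 80.8%, 70.0%, and 54.7% of all tested genes in WT cells, Per1-/- cells, and the Per2-/- labelled libraries. Between Per1-/- and WT cells of day 4 all 6 receptors overlapped on this scale, and on day 2 Adgre1 (by 0.16) and Mrc1 (by 0.25) were above, Cd36 (by 0.54) and Sirpa (by 0.18) below, and Msr1 and Cd14 overlapped. Of all tested genes 0.0804% were above and 82.0% below in that comparison.

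**Figure D3:**
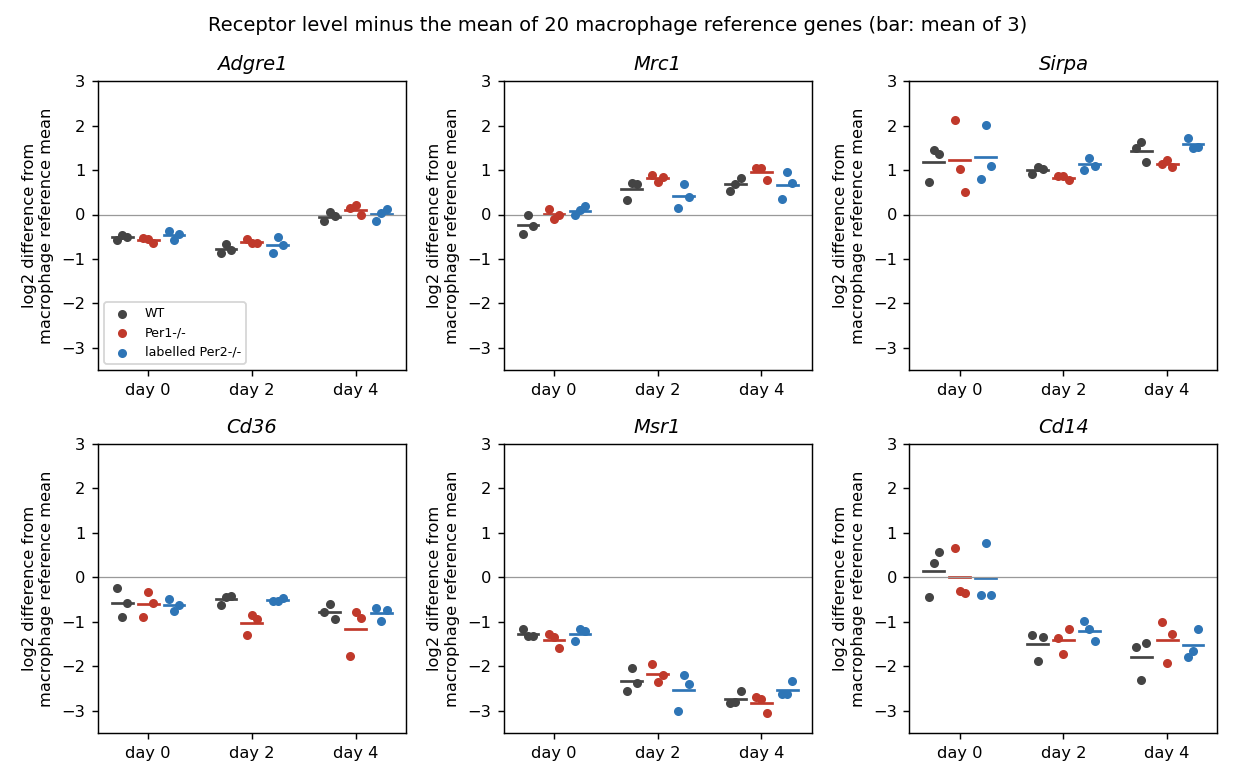
Log2(FPKM + 0.1) of each tested receptor minus the mean of 20 macrophage reference genes in the same library, by day and genotype, with a bar for the mean of 3 replicates. In WT cells Cd14 goes from -0.45 to 0.57 on day 0 to -2.32 to -1.48 on day 4, while Mrc1 goes from -0.45 to -0.01 to 0.52 to 0.82.

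The same was tested with the reference mean as a covariate in limma, which asks whether a receptor differs between days at one level of the reference genes. In WT cells by day 4, Sirpa (log2 fold change 1.28, adjusted p = 7e-06) and Mrc1 (1.07, adjusted p = 0.00012) were called higher, and Msr1 (-1.27, adjusted p = 8.7e-05) and Cd14 (-1.37, adjusted p = 0.0093) lower. The percentages of all genes called were 22.7% higher and 21.7% lower in this fit. Msr1 was called lower in all 6 comparisons with day 0, against 20.5% and 21.7% of genes by days 2 and 4 in WT cells, 19.4% and 20.4% in Per1-/- cells, and 17.4% and 19.7% in the Per2-/- labelled libraries, and Cd14 in 5 of them, the exception being Per1-/- cells on day 4 (-0.74, adjusted p = 0.18). Cd36 was called lower in Per1-/- cells on day 4 (-0.72, adjusted p = 0.041) and had values of -0.34 and -0.26 in the other 2 groups. No receptor was called between genotypes in this fit, in which at most 0.0737% of genes were called higher in Per1-/- cells. The covariate itself differed between the days, and its log2 means in WT cells were 2.17 to 3.15 at the start and 4.18 to 4.67 by day 4.

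As shares of the summed FPKM of the 6 tested receptors, Cd14 made up a mean of 18.5% in WT cells on day 0 and 4.7% on day 4, and Msr1 6.8% and 2.3%. Mrc1 went from 13.9 to 25.4% and Adgre1 from 11.5 to 15.3%, while Sirpa (37.8 and 43.0%) overlapped between the days in WT cells and was at 38.8 and 35.5% in Per1-/- cells. In Per1-/- cells Mrc1 went from 16.6 to 31.1% and Cd14 from 16.2 to 6.3%, so the shares of Mrc1 and Cd14 moved in opposite directions in both. A receptor that stays level loses share when others of the sum rise. In FPKM, the log2 fold change of Cd14 over these days was 0.01 in WT and 0.88 in Per1-/- cells, so its level did not fall.

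Over the 27 libraries, Adgre1, Mrc1, Sirpa, and Cd36 followed the mean of the reference list with a Pearson's r of 0.975, 0.974, 0.932, and 0.958, Msr1 with 0.802, and Cd14 with 0.627, where libraries share day and genotype. The tested genes most like Mrc1 were Pik3cg (r = 0.988), Nrros, and Il10ra, those most like Adgre1 were Arhgap30 (0.987), Fyb, and Hpgds, and those most like Sirpa were Was (0.982), Nfam1, and Dab2. Msr1 was most like Plek (0.941), Dock8, and C5ar1. Cd14 was most like Abcc3 (0.902), Gcnt1, and Gmip. With each library's group mean subtracted, Msr1 was most like Adgre1 (0.967) and Mrc1 (0.955), and Cd14 most like Dennd1c (0.929).

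The other 4 receptors were near the limit of counting, where 3 fragments are the floor that a count of 0 allows. Clec4e (ENSMUSG00000030142, chromosome 6 from 123281789 to 123289870, minus strand) had 141, 38, and 64 fragments in Per1-/- cells on day 4, 21, 12, and 40 in WT cells, and 22, 18, and 41 in the Per2-/- labelled libraries of that day. On day 0 it had 8, 3, and 6 in WT cells, 8, 1, and 34 in Per1-/- cells, and 9, 1, and 9 in the Per2-/- labelled libraries. Day 4 was above day 0 in every library of each genotype. In FPKM this held for 33.1%, 30.5%, and 31.0% of all tested genes in WT cells, Per1-/- cells, and the Per2-/- labelled libraries. Clec4e was not among the tested genes. On day 4 the fragments of Per1-/- cells overlapped with those of both other groups, while their FPKM of 1.38, 0.469, and 0.566 were above the highest of WT cells (0.359) and of the Per2-/- labelled libraries (0.388). Every Per1-/- library was likewise higher for 7.98% and 11.0% of all tested genes in these 2 comparisons. Marco (ENSMUSG00000026390, chromosome 1 from 120474538 to 120505024, minus strand) had 16, 7, and 19 fragments in Per1-/- cells on day 4 and at most 13 in any other library. It was at 0 in 4 of the 27 libraries.

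**Figure D4:**
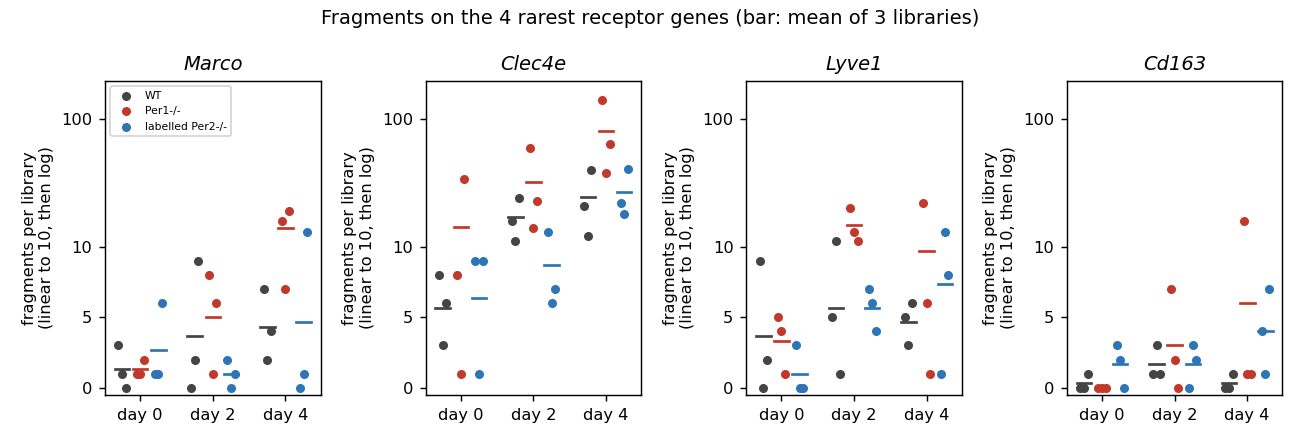
Fragments counted in each library for Marco, Clec4e, Lyve1, and Cd163, by day and genotype, on an axis that is linear to 10 and logarithmic above, with a bar for the mean of 3 libraries. Clec4e reaches 141 fragments in a Per1-/- library of day 4, while Marco, Lyve1, and Cd163 stay at or below 22 in every library.

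Lyve1 (ENSMUSG00000030787, chromosome 7 from 110850607 to 110863239, minus strand) had 0 to 22 fragments in a library and was at 0 in 3. The Per1-/- libraries of day 2 had 20, 13, and 11, and WT libraries of that day 5, 11, and 1, so they touched at 11. Cd163 (ENSMUSG00000008845, chromosome 6 from 124304656 to 124330527, plus strand) was at 0 in 10 libraries, and 1 library, Per1-/- replicate 1 of day 4, had 16 fragments and no other more than 7. Its 27 libraries together gave 56 fragments, beside 90589 for Mrc1. When genes below the filter were tested as well, Clec4e (log2 fold change 1.86, adjusted p = 0.00707) and Marco (1.64, adjusted p = 0.0159) were called higher on day 4 than on day 0 in Per1-/- cells, on a scale where fold changes of such low genes depend on the pseudocount (limma). The share of all genes called higher in that fit is not reported here, and with the filter it was 22.6% in this comparison. Lyve1 and Cd163 were called in no comparison, and none of the 4 between genotypes.

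Other genes of the same pathways were read from fixed lists. From day 0 to day 4, 22.9% of the 14932 tested genes were called higher in WT cells (3120 genes lower). In Per1-/- cells it was 22.6% (3043 lower), and in the Per2-/- labelled libraries 21.6% (2800 lower). The counts of each list below were not tested against these shares. Of 20 other scavenger receptors 16 were tested, and from day 0 to day 4 there were 5 higher and 4 lower in WT cells, 7 and 4 in Per1-/- cells, and 4 and 4 in the Per2-/- labelled libraries, with a median log2 fold change of 0.34, 0.43, and 0.20. Scara5, a ferritin receptor of fibroblasts, rose by 5.40, 4.93, and 4.47 on the log2 scale in the 3 genotypes, from 0.201 ± 0.0476 to 12.8 ± 3.35 FPKM (SD, n = 3) in WT cells. Olr1, the receptor for oxidised LDL, had -4.51, -4.58, and -4.71, and Cd44, the hyaluronan receptor, -3.55, -3.12, and -3.59, and both were called lower in each genotype. Cd68, a macrophage lysosomal protein that is also in the reference list, rose in WT (1.49) and Per1-/- cells (1.76).

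Of 19 other C-type lectins of myeloid cells 9 were tested. From day 0 to day 4, 5 rose and 1 fell in WT cells, 6 and 1 in Per1-/- cells, and 5 and 1 in the Per2-/- labelled libraries. Clec4a1 rose by 4.40, 5.23, and 3.72 on the log2 scale, Clec4a2 by 3.27, 3.66, and 2.79, and Clec4n (Dectin-2) by 2.23, 3.02, and 1.53, and the member that fell in each was Ly75, a relative of the mannose receptor (-3.16, -3.08, and -2.93). Another 4, Cd209a, Cd209b, Cd209d, and Cd209f, were at 0 in all libraries.

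Of 25 partners and signalling genes of the receptors 23 were tested, of which 7 rose and 4 fell by day 4 in WT cells, 7 and 3 in Per1-/- cells, and 6 and 3 in the Per2-/- labelled libraries. Ptpn6, the phosphatase SHP-1 that Sirpa recruits, rose by 2.47, 2.52, and 1.88 on the log2 scale. Fcer1g, the signalling chain of Clec4e, rose by 2.01 and 2.08 in WT and Per1-/- cells, and Card9, which acts below it, by 1.73, 1.86, and 1.70. Tlr2 rose by 1.76, 2.17, and 0.85, while Hmox1, the haem oxygenase downstream of haemoglobin uptake, had -1.21, -0.73, and -1.34 and was called lower in each. Cd47, the ligand of Sirpa, rose by 0.77 in WT cells and 0.59 in the Per2-/- labelled libraries. Of all these 3 lists, 1 gene was called between genotypes on days 0, 2, and 4. It was Syk, the kinase below Clec4e, at 5.92 ± 0.746 FPKM (SD, n = 3) in Per1-/- cells and 2.32 ± 0.468 in the Per2-/- labelled libraries on day 4 (log2 fold change 1.32, SE 0.30, adjusted p = 0.0435 from limma). In this comparison 0.442% of all tested genes were called higher.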

How the data were processed

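Bulk RNA-seq of WT, Per1-/-, and Per2-/- labelled MEFs was taken as FPKM that the authors deposited for 54532 genes in 27 libraries. Poly-A RNA was sequenced as paired ends without strand, so overlapping or antisense genes could not be told apart. The authors aligned reads with HISAT2 2.0.5 to mm10 (GRCm38) and counted them with featureCounts 1.5.0-p3. Multiplied by gene length and library scale, 100% of values gave whole fragments (tolerance 0.001), 15815013 to 24264097 per library.

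The 10 receptors and the gene lists were chosen with earlier results of these data known. On the log2(FPKM + 0.1) scale, 14932 genes that averaged 0.5 FPKM or more were fitted with limma 3.58.1 (R 4.3.3; lmFit, contrasts.fit, eBayes with a trend) over 9 groups, with Benjamini-Hochberg adjustment over all genes of a comparison. Fold changes on this scale understate changes of low genes. The labels number the replicates as biological but do not say whether they are separate embryos, and an exact permutation test of 3 libraries against 3 gives no p below 0.1. The spread within groups exceeded that of counting (between 9.77 and 74.5 for a chi-square over its degrees of freedom), so no library was taken for a copy of another. Alternatives were other pseudocounts (1 and 0.01) and filters (1 FPKM, none), rescaling, new size factors, voom weights on fragments, fewer groups, a replicate block, a covariate, no minimum fold change, and each library left out. The genes named are the 10 receptors, Per1, Per2, called or defining genes of the lists, and the 3 most alike genes of each tested receptor except Cd36, for which they are not reported here. Same-numbered libraries deviated together (every r over 0.1) for days 0 and 2 and days 2 and 4 of Per1-/- cells and days 2 and 4 of WT cells, so calls that the block changed there are given beside the result. The procedure was tested on simulated data. DESeq2, which the authors used, was not run, and the single-cell data were not analysed here. Summaries and figures were made in Python 3.11.15 (numpy 2.4.6, pandas 2.3.3, matplotlib 3.10.9).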

Additional observations from a re-analysis of the deposited data

How the results depend on the processing

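None of the 6 tested receptors was called between WT cells and either other genotype under any alternative or with any library left out, and none was called for a difference in change between genotypes. The calls of Mrc1 by day 2 and day 4 in WT and Per1-/- cells and of Sirpa by day 4 in all 3 groups held under every alternative, including each library left out. Depth limits Clec4e, Marco, Lyve1, and Cd163, with at most 141 fragments in a library, and replicate spread rather than counting limits the other 6. The cause of the shifts that follow was not tested, except that a covariate removes what a receptor shares with the reference genes.

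The number of receptors called for Per1-/- cells against the Per2-/- labelled libraries on day 4 was 0, and it was 2 with voom weights and 2 with only these groups in the fit. For WT cells, the count by day 2 was 2, and 4 after rescaling to a common sum, and the count from day 2 to day 4 was 1, but 2 with a pseudocount of 1, voom weights, or the covariate and 3 with only the groups compared. From day 2 to day 4 in Per1-/- cells it was 1, and 2 with a pseudocount of 1, voom weights, only the groups compared, or the covariate. In the Per2-/- labelled libraries, the count by day 2 was 0, and 1 with only the groups compared and 2 with the covariate, and that from day 2 to day 4 was 2, and 1 with a pseudocount of 0.01, no filter, or rescaling and 3 with only the groups compared.

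Same-numbered libraries of one genotype on different days correlated over 0.1 in 14 of 27 pairs (lowest r = -0.02) after group means were removed, and a library was most like its own number in 48 of 54 cases. All 3 same-numbered pairs were over 0.1 only for days 0 and 2 and days 2 and 4 in Per1-/- cells and days 2 and 4 in WT cells. No pair of different numbers within a genotype was over 0.1 (highest r = 0.09). The labels do not say what the numbers follow over days, so the main fit has no block and the blocked fit is an alternative. Across genotypes of one day, a library was most like its own number in 13 of 54 cases (median r of same-numbered pairs -0.036). The numbers were therefore not taken to pair genotypes. With the replicate block all the same, 1 receptor (Sirpa) was called on day 2 and 2 (Sirpa and Cd14) on day 4 for Per1-/- cells against the Per2-/- labelled libraries. The shares of all genes called in the blocked fit are not reported here, so none of its calls has a share beside it. From day 2 to day 4 the block gave 2 in WT and 2 in Per1-/- cells, and it gave 2 lower by day 2 in the Per2-/- labelled libraries, Msr1 (-1.03, adjusted p = 0.0491) and Cd14 (-0.95, adjusted p = 0.00966). Against day 0 the block added Cd36 by day 2 in WT (1.09, 3 called) and Per1-/- cells (4 called), Cd14 by day 4 in Per1-/- cells (0.88, adjusted p = 0.0130, 5 called), and Cd36 by day 4 in the Per2-/- labelled libraries (1.03, 4 called), all with limma.

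With the covariate, log2 fold changes of the other sign from those in the report were found for Cd36 between Per1-/- and WT cells (-0.60 on day 2 and -0.44 on day 4) and between Per1-/- cells and the Per2-/- labelled libraries (-0.62 and -0.46), and for Msr1 on day 4 in these comparisons (-0.0015 and -0.16). Against day 0 they were found in WT cells for Adgre1 on day 2 (-0.24) and for Msr1 (-1.27), Cd14 (-1.37), and Cd36 (-0.34) on day 4. In Per1-/- cells they were found for Adgre1 (-0.00077), Msr1 (-0.63), and Cd36 (-0.53) on day 2 and for Msr1 (-1.19), Cd14 (-0.74), and Cd36 (-0.72) on day 4, and in the Per2-/- labelled libraries for Adgre1 (-0.21) and Sirpa (-0.048) on day 2 and Cd36 (-0.26) on day 4. Rescaling turned Msr1 by day 2 in WT cells (0.37), Cd14 by day 2 in Per1-/- cells (0.37), and Msr1 by day 4 in the Per2-/- labelled libraries (0.19). New size factors and voom weights gave 0.0030 and 0.016 for Cd14 by day 2 in Per1-/- cells, and a pseudocount of 1 gave -0.0332 for Adgre1 by day 2 in the Per2-/- labelled libraries.

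Levels relative to the reference genes from day 0 to day 4 moved by more than the replicate SD with a pseudocount of 1 for Adgre1 (0.57) and Msr1 (-1.25) in WT cells, Mrc1 in Per1-/- cells (1.08), and Msr1 in the Per2-/- labelled libraries (-1.03). With Csf1r, Itgam, and Ptprc as the reference they were 0.22, 0.58, and 0.26 for Adgre1 in WT cells, Per1-/- cells, and the Per2-/- labelled libraries, 0.68 for Mrc1 and -1.71 for Msr1 in WT cells, and -1.47 for Msr1 and -0.38 for Cd36 in the Per2-/- labelled libraries.

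With each library left out in turn, the count by day 2 was 1 to 3 in WT cells, 2 to 5 in Per1-/- cells, and 0 to 1 in the Per2-/- labelled libraries. From day 2 to day 4 it was 0 to 1 in Per1-/- cells and 1 to 1, Sirpa, in the Per2-/- labelled libraries. The log2 fold changes that changed sign ranged from -0.25 to 0.32 for Msr1 by day 2 and from -0.25 to 0.42 for Cd14 by day 4 in WT cells, and from -0.36 to 0.51 for Cd14 by day 2 in Per1-/- cells. In the Per2-/- labelled libraries they ranged by day 2 from -0.72 to 0.44 for Adgre1, from -0.12 to 0.91 for Mrc1, from -0.39 to 0.80 for Cd36, and from -0.26 to 0.26 for Sirpa, and by day 4 from -0.69 to 0.28 for Msr1. None of these was called.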

Other observations

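Lyve1 binds hyaluronan, and 8 of the 10 genes listed for hyaluronan synthesis, breakdown, and binding were tested. From day 0 to day 4, 1 rose and 2 fell in WT cells, 1 and 2 in Per1-/- cells, and 2 and 2 in the Per2-/- labelled libraries, with a median log2 fold change of -0.18, -0.32, and -0.10. All tested genes had shares of 22.9%, 22.6%, and 21.6% called higher, and 3120, 3043, and 2800 of 14932 called lower. Hmmr, a hyaluronan receptor of dividing cells, fell in each (-1.54, -1.71, and -1.48). Has2, the main hyaluronan synthase of fibroblasts, fell in WT (-1.12) and Per1-/- cells (-0.93), and Tnfaip6, a hyaluronan-binding protein of inflammation, rose in WT cells (1.11) and in the Per2-/- labelled libraries (1.58). None of the 8 was called between genotypes.

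Of 11 paralogs of the receptors 6 were tested. From day 0 to day 4, 1 rose and 2 fell in WT cells, 2 and 2 in Per1-/- cells, and 1 and 2 in the Per2-/- labelled libraries, and none was called between genotypes. The shares of all tested genes are those given for the hyaluronan genes. Adgre5 (CD97), a relative of Adgre1, had -1.30, -1.40, and -1.23 from day 0 to day 4 and was called lower in each genotype. Of 16 markers of other leukocytes 1 passed the filter, and their summed level was 0.378 to 3.03 FPKM over all libraries.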
